A study of Mus musculus with 12 samples.

Results

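The genes described here encode the proteins of the mitochondrial ribosome. They are the 76 rows, of 18351 genes in the deposited table, whose symbol starts with Mrpl or Mrps and a digit, pseudogene names left out. By the letter in their symbol 47 belong to the large subunit and 29 to the small subunit. RNA sequencing was done on pancreatic islets, the hormone-secreting cell clusters of the pancreas, of mice with and without the aldehyde dehydrogenase gene Aldh1b1. The null mice carry Aldh1b1 tm1lacZ, a germline lacZ knock-in that removes the function of the gene in every tissue and not in islet cells alone, and the controls are wild-type (WT). The study's methods name male mice for islet isolation, and the labels give no sex for these libraries. Islets were taken at postnatal day 1 (P1), with 3 mice pooled in a library, or at week 8, with 1 mouse in a library, and each of the 4 groups holds 3 libraries. All islets were kept in culture medium with serum for a short time, the same in all groups, before RNA was taken, and poly(A) RNA was sequenced.

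Mitochondria translate a small set of messages from their own genome with a ribosome of their own, and every product of it in mammals is a subunit of the respiratory chain or of ATP synthase. The ribosomal RNAs come from mitochondrial DNA, but all of the proteins are encoded in the nucleus, made in the cytoplasm and imported. In beta cells the respiratory chain supplies the ATP that couples glucose to insulin release. Symbols follow history and not always structure: Mrps30 and Mrps18a proteins are placed in the large subunit of the mammalian particle, and Mrps36 is also known as a subunit of the 2-oxoglutarate dehydrogenase complex.

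Values are normalised counts, that is the reads of a gene after division by the size factor of its library. Reads assigned to genes numbered 15212080 to 29248285 per library. Aldh1b1 itself had 60.2 to 88.9 normalised counts in WT P1 and 58.9 to 102.4 in WT week 8 libraries, against 0 to 2.79 and 0 to 0.671 in the null libraries of these ages. The islet hormone genes were abundant in all groups, and so were the 33 digestive enzyme and acinar genes listed as markers of exocrine tissue. These acinar genes took 49.7% to 56.0% of reads in WT week 8 libraries and 12.9% to 24.4% in null week 8 libraries, and at P1 2.22% to 6.92% in WT and 11.4% to 26.5% in null. In such bulk samples fewer cells of a type and less RNA per cell cannot be told apart. WT P1 replicate 1 stood apart for the genes described here. Their summed normalised counts were 38395 in it, against 24109 and 25270 in the other two WT P1 libraries. In the same library the deviation of genes from the P1 mean ran against gene length (rank correlation across genes -0.624, against 0.147 to 0.415 in the other P1 libraries, given as a description). The 76 genes are short, with a median length of 1700.5 bases against 3213 for all genes, so the main P1 results are given also without that library.

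All 76 genes had a mean of at least 1 normalised count in each fit and were tested. Levels between genes are compared per kilobase of the deposited gene length, over the mean of the 4 groups. The 76 genes spanned 3.58 to 1157 normalised counts per kilobase with a median of 203. Mrpl52 was the highest, with 1199.8 per kilobase in WT P1, 1218 in null P1, 1398 in WT week 8 and 810.3 in null week 8. Mrps16 (492), Mrpl20 (487), Mrpl54 (481) and Mrps12 (430.4) came next in the mean of the 4 groups, close together and at less than the level of Mrpl52. Mrps16 and Mrps12 are homologues of bacterial small-subunit proteins, and S12 in bacteria is part of the decoding centre. At the other end stood Mrpl23 (3.58 per kilobase), Mrps25 (22.0), Mrps10 (26.2), Mrps36 (30.1) and Mrps35 (43.2). Without division by length Mrps33, at 96.9 normalised counts, was below Mrps25 (145), Mrps10 (211) and Mrps35 (239). The deposited lengths of Mrps25, Mrps10 and Mrps35 are 6576, 8079 and 5543 bases, so their places in this ranking rest on those lengths.

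The 2 members with few reads need care. Mrpl23 had 0 to 7.36 normalised counts in the WT week 8 libraries, and its pseudogene row Mrpl23-ps1 had more reads than the gene in each library. Mrps36 and Mrpl48 have pseudogene rows as well, and the sources used here do not say how reads shared with these copies were assigned. The values of Mrpl23, Mrps36 and Mrpl48 are therefore uncertain.

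The summed level of the 76 genes moved with age, genotype and the acinar share. As a percent of all reads they took 0.0842 to 0.0963 in WT week 8 libraries and 0.124 to 0.167 in null week 8 libraries, without overlap. At P1 they took 0.187 to 0.289 in WT and 0.155 to 0.172 in null libraries, also without overlap. With the reads of acinar genes left out, WT week 8 libraries held 0.189% to 0.191% and null week 8 libraries 0.164% to 0.192%, which overlapped. The ratio of null to WT means at week 8 was thus 1.62 of all reads, 0.934 of the remaining reads and 0.917 of summed normalised counts. The direction of the summed level at week 8 therefore turned with the denominator. At P1 the groups overlapped once acinar reads were left out, with 0.197% to 0.299% in WT and 0.194% to 0.211% in null libraries. The P1 ratio was 0.730 of all reads, 0.880 of the remaining reads and 0.876 of summed normalised counts. Without WT P1 replicate 1 these ratios were 0.856, 1.03 and 1.04, so at P1 too the direction turned with the denominator. No test was made on this sum.

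**Figure D1:**
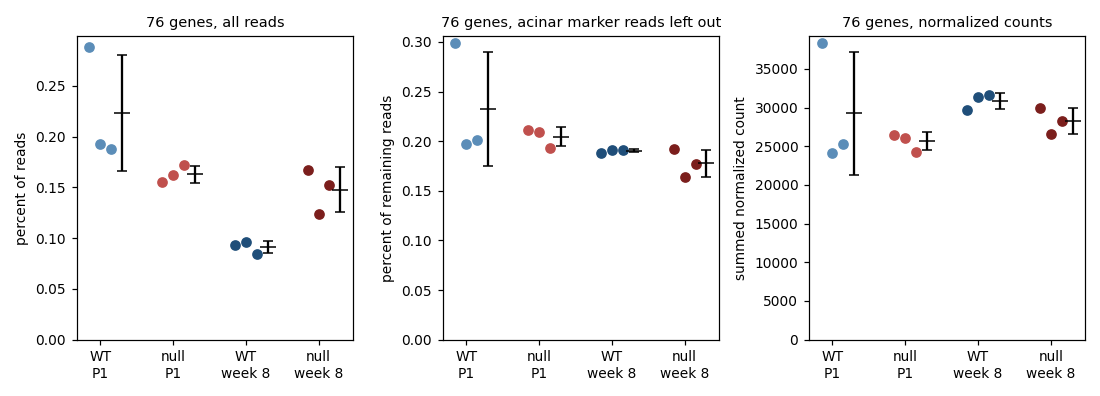
Summed level of the 76 genes in each of 12 libraries (points) with mean and SD of 3 libraries (black), as percent of all reads, as percent of reads left without acinar marker genes, and as summed normalised counts. Null week 8 libraries lie above WT (0.124 to 0.167 against 0.0842 to 0.0963 percent) only in the left panel, and WT P1 replicate 1 lies highest among the P1 libraries in all panels.

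At week 8 the question was which of these genes differed between adult null and WT islets. Of the 76 genes 12 were lower and 1 was higher in null than in WT islets, with an adjusted p under 0.05 (limma, adjusted over all 18126 genes tested). Of all genes 15.8% were lower and 12.3% higher by the same rule. The share of members called lower was thus near the background and the share called higher was below it, with no test of either difference. The median log2 fold change was -0.10 for the 76 genes and 0.02 for all genes, and 50 of the 76 were below 0. The values of both groups did not overlap for 22 members lower and 7 higher in null islets, where 22.1% and 21.5% of all genes did so. Acinar marker genes were lower in null islets in 33 of 33 cases and beta cell markers higher in 14 of 17, and their part in the values of the 76 genes was not tested.

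The large subunit held 8 of the 12 lower genes and the single higher gene among its 47 members, and its median log2 fold change was -0.12. The small subunit held the other 4 lower genes among 29 members, with a median of -0.02. The most clearly lower gene was Mrpl15, a homologue of the bacterial core protein L15. It measured 538, 648 and 629.8 normalised counts in the WT week 8 libraries and 376, 326 and 353 in the null libraries labelled MUT218, MUT219 and MUT229, each of 1 animal. Each null library was below each WT library, and the log2 fold change was -0.78, SE 0.13, adjusted p = 0.003. Mrpl52, a protein with no bacterial counterpart, measured 515, 532 and 681 in WT and 319, 356 and 327 in null libraries. Its groups did not overlap either (-0.78, SE 0.15, adjusted p = 0.004). Mrps24 is assigned to the place of bacterial S3 at the entry of the message, and it measured 559.7, 620.1 and 673 in WT and 353, 415 and 326 in null libraries. MUT229 was the lowest, and every null value was under the lowest WT value (-0.76, SE 0.14, adjusted p = 0.004).

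Mrpl12 forms the stalk that recruits translation factors, and in human cells it has also been found bound to the mitochondrial RNA polymerase. It measured 617, 529 and 638 in WT and 403, 339 and 423 in null week 8 libraries. The groups did not overlap (-0.62, SE 0.14, adjusted p = 0.010). Mrps15, a homologue of the S15 protein that binds the small ribosomal RNA early in assembly, measured 423, 452 and 464 in WT and 276, 314 and 284 in null libraries (-0.61, SE 0.13, adjusted p = 0.008). Mrpl37, a mitochondrion-specific protein, measured 583, 573 and 633 and 408, 421 and 439.9 (-0.49, SE 0.12, adjusted p = 0.013). In both genes the lowest WT library was above the highest null library. Mrpl30, a homologue of L30, measured 663, 745 and 964 in WT and 501, 603 and 514 in null libraries (-0.54, SE 0.16, adjusted p = 0.030). WT replicate 3 was well above the other 2 WT libraries, and the highest null library stayed below the lowest WT library.

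Of the other lower genes, Mrps21, a homologue of S21, had 454 ± 63.9 normalised counts (SD, n = 3) in WT and 315 ± 9.56 in null week 8 islets, with the groups apart (adjusted p = 0.025). Mrps25, among the members with the lowest level per kilobase, had 180.1 ± 10.9 and 118 ± 23.5 (adjusted p = 0.041). Mrpl28 had 575 ± 73.5 and 424 ± 30.7 (adjusted p = 0.042). Mrpl13, Mrpl20 and Mrpl28 are all homologues of bacterial large-subunit proteins that bind ribosomal RNA. Mrpl20 had 652 ± 61.7 and 491 ± 22.1 (adjusted p = 0.036), and Mrpl13 520.1 ± 50.5 and 391 ± 28.5 (adjusted p = 0.045), the weakest call of the 13.

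The single higher gene was Mrpl1, a homologue of L1, which forms the mobile stalk beside the site where spent tRNA leaves the ribosome. It measured 406, 426 and 454 in WT week 8 libraries and 782, 524 and 697 in the null libraries MUT218, MUT219 and MUT229. MUT219 was nearest to the WT values and still above them (0.62, SE 0.16, adjusted p = 0.018). Mrps36 had a larger fitted change (1.05, SE 0.65, adjusted p = 0.26), but its WT week 8 values were 29.5, 53.4 and 5.52 and its null values 43.0, 41.8 and 49.9. These groups overlapped, the WT libraries being spread far more widely than the null libraries. Mrps9, a homologue of S9, measured 228, 234 and 275 in WT and 342, 321 and 316 in null libraries. Its groups did not overlap but it missed the threshold (0.41, SE 0.15, adjusted p = 0.059).

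**Figure D2:**
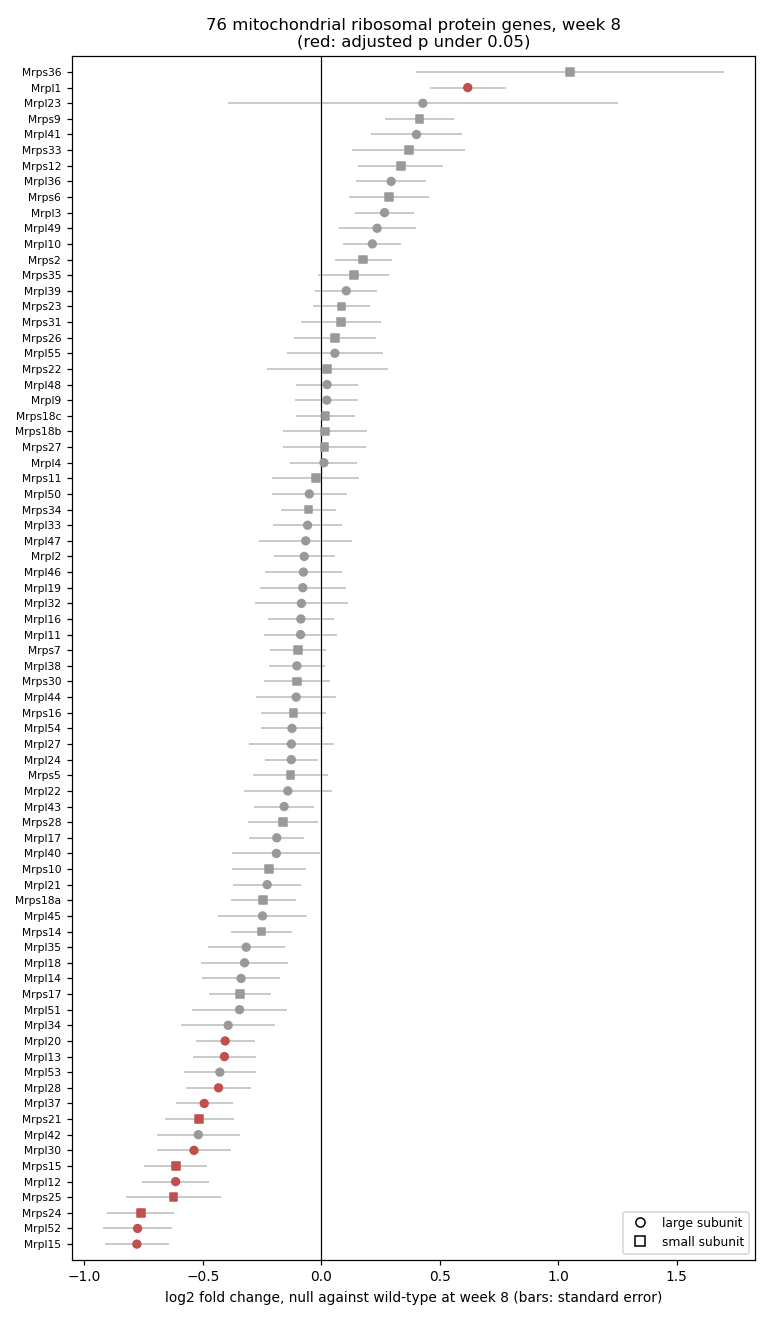
Log2 fold change of null against WT islets at week 8 for each of the 76 genes, ordered, with the standard error of the fit. Circles are large-subunit and squares small-subunit genes, and the 13 red genes passed an adjusted p under 0.05. The 12 lower genes lie between -0.78 and -0.41 and Mrpl1 lies at 0.62.

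The 3 paralogues of bacterial S18 gave no call. The week 8 log2 values were -0.25, SE 0.14, adjusted p = 0.21 for Mrps18a, 0.02, SE 0.18, adjusted p = 0.96 for Mrps18b and 0.02, SE 0.13, adjusted p = 0.93 for Mrps18c. Mrps18c was the most even of them, with 356, 376 and 365 in WT and 375, 363.2 and 372 normalised counts in null week 8 libraries.

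The number of week 8 calls changed when single libraries were left out, which weakens the test for every gene. Shares of all genes called are not given beside these leave-out counts. They are also not given for the length offset, the other scaling and the unadjusted p below. These counts therefore do not set the 76 genes apart. Without WT replicate 3, 4 members were called, all lower. Without MUT218 or without MUT229, 6 members were called, all lower, and Mrpl1 was not among them. With an offset for gene length 13 members were called, 9 lower and 4 higher, and the median of the 76 genes was 0.01 against 0.04 for all genes, which brought the difference between the medians to -0.03 from -0.12. With library totals that leave out the 10 most abundant genes as the scale, the median of all genes moved to 0.47 and that of the 76 genes to 0.37, and 24 members were called higher and 0 lower. On that scale Mrpl13, Mrpl20 and Mrpl28 lay above 0. Subtracting the median of all genes removes any shift common to all genes, so it is no test of stability, and relative to that median Mrpl15 lay at -0.80 to -0.79 and Mrpl1 at 0.60 to 0.61 under the 5 scalings. With the acinar share as a covariate in a fit of 12 libraries 0 members were called by limma, as were 0 of all genes. At an unadjusted p under 0.05 0 members were higher and 0 lower. The acinar share did not overlap between WT and null week 8 islets, so this fit can hardly tell it apart from genotype.

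At P1 the same comparison was made in newborn islets. By limma 0 of the 76 genes passed an adjusted p under 0.05, where 0.0548% of all 18235 genes were higher and 0.011% lower. At an unadjusted p under 0.05, 3 members were lower and 0 higher, against 6.24% and 8.73% of all genes. By edgeR 0 members passed, against 0.0768% of all genes higher and 0.0219% lower. By DESeq2 Mrpl1 alone passed, as lower, against 2.36% of all genes higher and 1.27% lower. The groups did not overlap for 9 members lower and 1 higher in null islets, where 10.9% and 12.7% of all genes did so.

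Mrpl1 had the smallest unadjusted p at P1 and measured 699, 570.3 and 551 in WT P1 libraries and 426, 371 and 369.8 in null P1 libraries. All null values were below all WT values. The log2 fold change was -0.64 (SE 0.17, unadjusted p = 0.004, adjusted p = 0.15, limma), and -0.53 without WT P1 replicate 1. Mrpl49 and Mrpl55, both large-subunit proteins, were the other members under an unadjusted p of 0.05. Mrpl49 measured 536, 406 and 318 in WT and 285, 301 and 280.4 in null P1 libraries, with an adjusted p of 0.31. Mrpl55 measured 307, 185 and 188 and 170.4, 143 and 133, with an adjusted p of 0.32. In both genes the groups did not overlap and WT replicate 1 was the highest library. Without that library the log2 fold change went from -0.51 to -0.31 for Mrpl49 and from -0.57 to -0.33 for Mrpl55.

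Next by unadjusted p and below 0 at P1 came Mrpl2 (-0.41, SE 0.19), Mrpl41 (-0.55, SE 0.25) and Mrps34 (-0.51, SE 0.23). Without WT P1 replicate 1 these were -0.23, -0.26 and -0.24. Above 0 were Mrps36 (0.53, SE 0.38), Mrpl30 (0.16, SE 0.16), Mrpl38 (0.14, SE 0.18), Mrps5 (0.12, SE 0.16), Mrps15 (0.12, SE 0.23) and Mrps27 (0.10, SE 0.20). None of these passed the test. The fitted differences of the 76 genes had a median of -0.17 against 0.03 for all genes, and 58 were below 0. Without WT P1 replicate 1 the median of the 76 genes was 0.08, so the sign of the median rested on that library. The median coefficient of variation of the 76 genes was 27.8% among the WT P1 libraries and 9.92% among the null P1 libraries, against 23.8% and 14.1% for all genes.

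**Figure D3:**
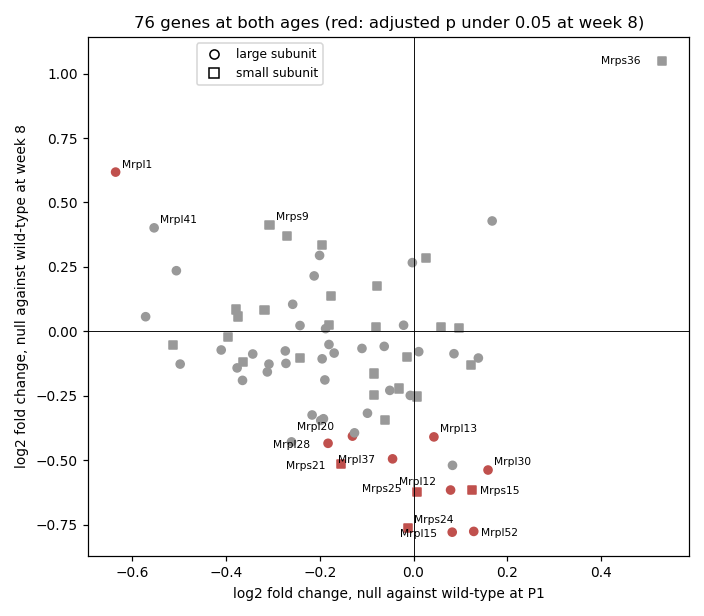
Log2 fold change of null against WT at week 8 (vertical) plotted against that at P1 (horizontal) for the 76 genes, with circles for large-subunit and squares for small-subunit genes and red for an adjusted p under 0.05 at week 8. Mrpl1 lies alone at the upper left (-0.64 at P1, 0.62 at week 8), and Mrpl15, Mrpl52 and Mrps24 lie lowest at week 8 and near 0 at P1.

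Whether the effect of genotype differed between the ages was tested as an interaction in a fit of all 12 libraries. It was called for 2 of the 76 genes, Mrpl1 higher and Mrpl30 lower, where 8.2% of all genes were called higher and 13.6% lower. For Mrpl1 the difference between the week 8 and the P1 log2 fold change was 1.25, SE 0.23, adjusted p = 0.002. Its mean normalised count was 607 ± 80.4 in WT P1, 389 ± 32.0 in null P1, 429 ± 24.1 in WT week 8 and 667 ± 131 in null week 8 islets (SD, n = 3). It was thus low in null newborns and WT adults, and high in WT newborns and null adults. The cell type markers crossed over between the same groups. The mean acinar share of reads was 4.20% in WT P1, 20.2% in null P1, 52.1% in WT week 8 and 17.1% in null week 8 islets, and by the interaction test 33 of 33 acinar markers were lower and 15 of 17 beta cell markers higher. Their part in the change of Mrpl1 was not tested. For Mrpl30 the difference was -0.70, SE 0.23, adjusted p = 0.044. Mrpl30 measured 608, 477 and 537 in WT P1 and 594, 662 and 550.5 in null P1 libraries, which overlapped. Without WT P1 replicate 1 the interaction was called for 12 members, 1 higher and 11 lower, and without WT P1 replicate 2 or 3 Mrpl30 was not called while 1 or 3 other members were. Mrpl1 was called in the fits that left out any single library. Leaving out null P1 replicate 1 or 2, WT week 8 replicate 3, MUT218 or MUT229 left Mrpl1 as the only call. Without WT week 8 replicate 2 there were 4 calls. The interaction counts with a library left out are given without the share of all genes called, so they describe the fits only. With the acinar share as a covariate neither was called, and the interaction was 0.77 for Mrpl1 (SE 0.72) and 0.39 for Mrpl30 (SE 0.65). That share was far higher in WT week 8 islets than in the other groups. A fit with it can hardly tell it apart from the groups, so the lost calls decide nothing.

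**Figure D4:**
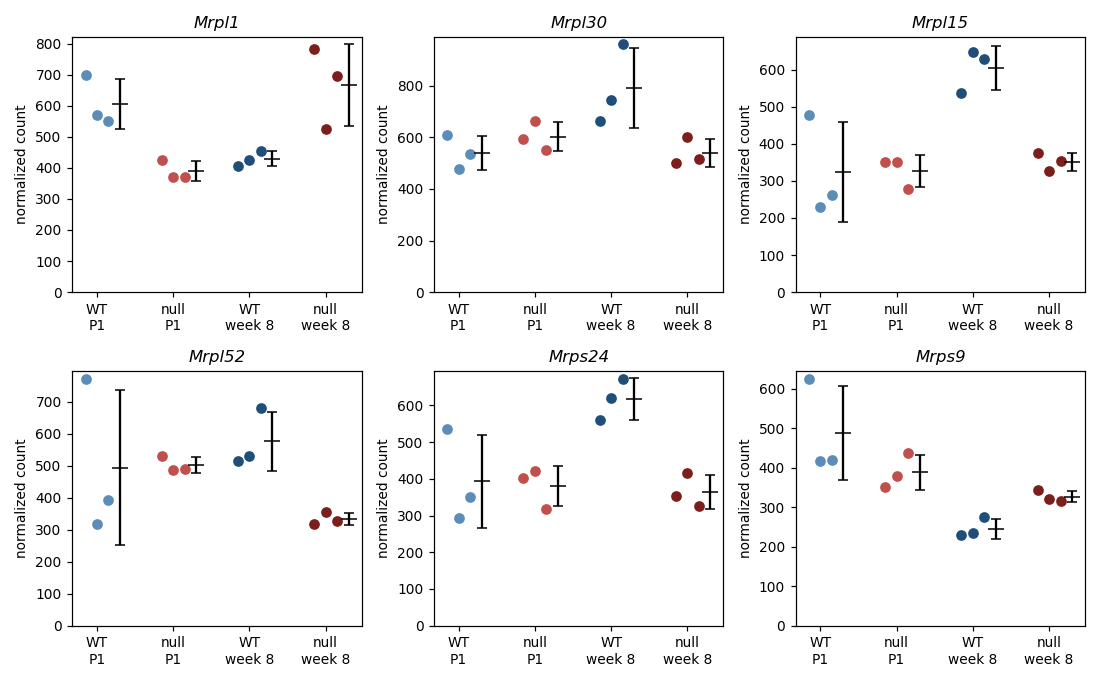
Normalised counts of 6 genes in each of 12 libraries (points), with mean and SD of 3 libraries (black). Mrpl1 is lower in null than in WT islets at P1 and higher at week 8, Mrpl15, Mrpl52 and Mrps24 are lower in null islets at week 8, and WT P1 replicate 1, the leftmost point of its group, is the highest WT P1 library in all 6 panels.

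With age, 8 members rose and 3 fell in WT islets from P1 to week 8 (limma, 12 libraries), where 15.9% of all genes rose and 16.8% fell. Age cannot be told apart from the pooling of mice at P1. Nor can it be told apart from the library numbers in the labels, which lie in separate ranges at P1 and at week 8. The risers were Mrpl15 (0.97), Mrps21 (0.87), Mrps24 (0.69), Mrps14 (0.63), Mrpl30 (0.54) and Mrpl16 (0.53) on the log2 scale, with Mrps15 (0.55) and Mrpl42 (0.62), named after their values were seen. Those that fell were Mrps9 (-0.96, SE 0.18, adjusted p = 0.00082), Mrpl1 (-0.49, SE 0.16, adjusted p = 0.033) and Mrpl41 (-0.65, SE 0.24, adjusted p = 0.049). Mrps9 went from 625, 418 and 419.8 in WT P1 to 228, 234 and 275 in WT week 8 libraries without overlap. Mrpl15 went from 478, 229.5 and 262 to 538, 648 and 629.8, and here too the groups did not overlap (0.97, SE 0.23, adjusted p = 0.004).

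Under library totals without the 10 most abundant genes, which moved the median of all genes to -0.78, 0 members rose and 52 fell in WT islets, and under totals without acinar genes, with that median at -0.38, 2 rose and 19 fell. On the first of these scales Mrps24, Mrpl30, Mrpl16 and Mrps14 lay below 0. The count of members called with age in WT islets was 25 without WT P1 replicate 1 (24 higher), 5 without WT P1 replicate 2, 7 without WT P1 replicate 3, 6 without WT week 8 replicate 2 and 3 without WT week 8 replicate 3. The fit of the 6 WT libraries alone called 3. No share of all genes called is given beside the counts in this paragraph, so they describe the scalings and fits only. They do not set the members apart from other genes.

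In null islets 7 members rose with age and 0 fell, where 21.2% of all genes rose and 25.5% fell. By edgeR and by DESeq2 8 members rose and 0 fell, and limma-voom also called 8. The share of all genes called by these tools with age is not given. Mrpl36, a homologue of L36, measured 192, 182 and 149 in null P1 and 389, 349 and 312 in null week 8 libraries (1.00, SE 0.23, adjusted p = 0.003). Mrps12 measured 312, 313 and 303 and 713, 477 and 678 (0.99, SE 0.23, adjusted p = 0.003). For both genes each week 8 value was above each P1 value. Mrpl1 rose (0.76, SE 0.16, adjusted p = 0.002), the reverse of its change with age in WT islets. Mrps2 (0.45), Mrps21 (0.51), Mrpl17 (0.46) and Mrps34 (0.50), the last named after its value was seen, had smaller rises. Mrps21 was the only member called in the same direction with age in both genotypes. The count was 17 without WT P1 replicate 1, and 3 or 4 without null P1 replicate 1, 2 or 3, MUT218 or MUT229. For these fits too the share of all genes called is not given. At an unadjusted p under 0.05, 11 members rose and 2 fell (limma), where 24.6% of all genes rose and 28.8% fell, so both shares of members were below the background.

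The other genes of mitochondrial translation gave few calls at either age, and the week 8 counts of each list stand beside the 15.8% of all genes that were lower and the 12.3% that were higher, with no test of a list. Of 7 ribosomal proteins with other names, Aurkaip1 was lower in null islets at week 8 (-0.44, SE 0.12, adjusted p = 0.022) and none was higher. Of 12 translation factors Mtif3, an initiation factor, was higher (0.59, SE 0.18, adjusted p = 0.033), with 224 ± 18.4 normalised counts in WT and 341 ± 67.4 in null week 8 islets. At P1 it had 224 ± 41.6 in WT and 136 ± 16.6 in null islets, and its interaction was called (1.29, SE 0.28, adjusted p = 0.005). Within each age its means were thus ordered as those of Mrpl1. Of 22 rows of assembly factors Ngrn was higher at week 8 (0.54, SE 0.13, adjusted p = 0.013), and its interaction was called as well (0.98, SE 0.26, adjusted p = 0.016). Of 17 mitochondrial tRNA synthetases Nars2 (0.67) and Ears2 (0.40) were higher and Lars2 (-1.01) was lower. Lars2 had 60704 ± 5672 normalised counts in WT week 8 islets, far above the others of its list. The sources used here do not say how reads shared with other sequences were assigned, so the level and the call of Lars2 are uncertain.

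Of 15 genes that copy and transcribe mitochondrial DNA or mature its RNA, 3 were lower at week 8 and 0 higher, a share lower near the 15.8% of all genes. They were Hsd17b10, a part of mitochondrial RNase P (-1.23, SE 0.14, adjusted p = 0.0005), Polg, the DNA polymerase (-0.69, SE 0.11, adjusted p = 0.002), and Top1mt, a topoisomerase (-1.56, SE 0.29, adjusted p = 0.004). At an unadjusted p under 0.05, 2 of the 15 were higher and 3 lower (limma), against 19% and 21.1% of all genes. Of 10 regulators of mitochondrial biogenesis Myc (-1.96, SE 0.21, adjusted p = 0.00048) and Pprc1 (-0.59, SE 0.15, adjusted p = 0.018), a coactivator of the PGC-1 family, were lower. Of 15 genes of mitochondrial mass Vdac2, Cs and Phb2 were lower, by log2 fold changes of -0.62, -0.49 and -0.44, and 0 were higher. At P1 0 of the 106 genes in the 8 mitochondrial lists described here passed by limma, against 0.0548% of all genes higher and 0.011% lower. At an unadjusted p under 0.05, 6 were higher and 3 lower (limma), against 8.73% and 6.24% of all genes.

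The messages that this ribosome translates were measured for 8 of the 13 mitochondrial genes listed. Only mt-Nd6 was called at week 8, lower in null islets (-0.97, SE 0.22, adjusted p = 0.009), and 7 of the 8 were below 0 with a median of -0.39. Poly(A) RNA was sequenced and the strand setting of the counting is not known, so the values of these messages, mt-Nd6 included, are uncertain. The summed share of all reads went the other way. The 8 messages took 1.52% ± 0.394 of reads in WT and 2.00% ± 0.250 (SD, n = 3) in null week 8 islets. These shares overlapped, at 1.09% to 1.86% in WT and 1.71% to 2.15% in null libraries. A sum is led by the most abundant messages, while the median weighs each message alike. With age 6 of the 8 rose in WT islets and 6 in null islets, with medians of 2.02 and 1.35. Of all genes 15.9% rose in WT and 21.2% in null islets. For mt-Co1 the mean was 28944 ± 1862 in WT P1 and 146787 ± 47545 in WT week 8 islets (2.29, SE 0.26, adjusted p = 1.6e-05). The median change of the 76 ribosomal protein genes with age was 0.04 in WT and 0.12 in null islets on the log2 scale.

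The cytoplasmic ribosome gave another count. Of 78 genes for its proteins 65 were lower and 1 higher in null islets at week 8, with a median log2 fold change of -0.98. For the mitochondrial ribosome 12 of 76 were lower and 1 higher, with a median of -0.10. Of all genes 15.8% were lower and 12.3% higher. At P1 0 of the 78 passed by limma, against 0.0548% of all genes higher and 0.011% lower, and the median was 0.03. At an unadjusted p under 0.05, 2 were higher and 1 lower (limma), against 8.73% and 6.24% of all genes. With age 5 of the 78 rose and 2 fell in WT islets, where 15.9% of all genes rose and 16.8% fell. In null islets 1 rose and 59 fell, where 21.2% and 25.5% of all genes did so. The difference between the 2 families was not tested, and the acinar share given above differed between the same groups.

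**Figure D5:**
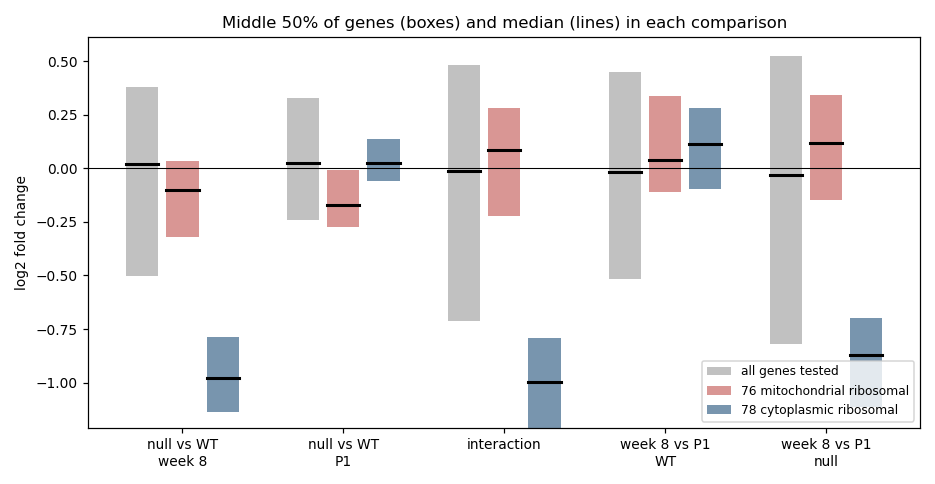
Log2 fold changes in 5 comparisons for all genes tested (grey), the 76 mitochondrial ribosomal protein genes (red) and the 78 cytoplasmic ribosomal protein genes (blue), with boxes for the middle 50% of genes and black lines for medians. At week 8 the cytoplasmic family has a median of -0.98 and the mitochondrial family of -0.10.

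Promoters of the members were read as a description. At week 8, 12 of the 76 genes were lower, a share near the 15.8% of all genes, and the direction of the calls changed with the scaling. A RefSeq promoter (GRCm38.p6, 250 bases before to 50 after the start) matched 67 of the 76 members, and Mrpl13, Mrpl15, Mrpl19, Mrpl38, Mrpl4, Mrpl54, Mrps28, Mrps34 and Mrps35 had no match. On both strands, 4 short motifs were searched that are cores of sites for factors linked to nuclear genes of mitochondria. GCATGCGC, the core for NRF1, was in 11.9% of member promoters and 2.82% of 26742 promoters of all genes. CCGGAAGT, for ETS factors such as GABP, was in 16.4% and 4.04%. AAGATGGC, for YY1, was in 17.9% and 2.90%, and CACGTG, the E-box bound by Myc and USF factors, in 7.46% and 7.25%. The E-box reads the same on both strands, and no motif contains another. The promoters of all genes include those of non-coding genes, so these shares describe the windows only.

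Of the 11 members called at week 8 with a promoter, 4 held a searched motif, where 30 of all 67 member promoters (44.8%) and 15.4% of all promoters did. The stretches around each are shown with the motif in capitals, at most 30 bases where it lies at or after the start, and each reads in the direction of the gene.
Mrps24, YY1 (chr11:5707652-5707681, minus strand): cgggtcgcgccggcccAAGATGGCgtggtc
Mrpl52, ETS on the other strand (chr14:54426899-54426928, plus strand): gggccacgcccACTTCCGGttcccttgctc
Mrpl37, YY1 (chr4:107066822-107066851, minus strand): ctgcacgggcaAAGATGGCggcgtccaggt
Mrpl37, E-box (chr4:107066973-107067078, minus strand): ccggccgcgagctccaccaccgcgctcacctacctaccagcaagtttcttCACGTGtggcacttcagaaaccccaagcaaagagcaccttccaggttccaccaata
Mrpl20, E-box (chr4:155802795-155802877, plus strand): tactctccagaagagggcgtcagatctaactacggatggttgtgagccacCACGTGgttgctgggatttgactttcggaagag
In Mrps24, Mrpl52 and Mrpl37 a motif begins 37, 2 and 27 bases into the transcript. The E-box begins 162 bases before the start in Mrpl37 and 33 bases before it in Mrpl20. These are matches of letters and not measured sites, and the window of Mrpl1 held none of the 4 motifs.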

How the data were processed

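Poly(A) RNA of islets was sequenced in 12 libraries, 3 in each of 4 groups, which were taken from the sample labels. The authors deposited a signal per gene and library, namely normalised counts, which are reads divided by a size factor of the library. In the submitters' processing notes stand bedtools 2.11 and DESeq 1.10.1, with mm9 as genome build. The header names an Ensembl 67 annotation. The sources used here give neither the aligner nor the counting options, strand included. The deposited fold changes, p-values and group means of the authors were not used. For the count tools whole reads were recovered from the deposited values, 100% of which lay within 0.001 of a multiple of the smallest value in their library.

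On log2(value + 1), a scale that understates changes of low genes, limma-trend was run (limma 3.58.1, R 4.3.3) for all genes whose mean in the fitted libraries reached 1. P-values were adjusted by Benjamini-Hochberg over all genes, with a threshold of 0.05. Week 8 and P1 were fitted apart on 6 libraries each, and the interaction and age effects on 12. A gene length offset was a loess fit with a span of 0.4. Alternatives were other scalings, filters and pseudocounts, edgeR 4.0.16, DESeq2 1.42.0 and limma-voom on recovered reads, covariates and left-out libraries. Week 8 libraries come from single animals and P1 libraries from pools, and p-values measure the spread between these libraries.

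The members, the gene lists and the tests were chosen with earlier results of these data known. Members named were, at week 8, up to 12 higher and 12 lower by adjusted p; at P1, 6 each way by unadjusted p; for the other comparisons, up to 6 each way; the 5 highest and 5 lowest per kilobase; the S18 paralogues, Mrpl12 and Mrps36; and at most 4 of each list. The scripts were tested on simulated data. Plots were made in matplotlib 3.10.9 (Python 3.11.15, pandas 2.3.3).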

Additional observations from a re-analysis of the deposited data

Results flagged for a closer look

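The effect of genotype differed between the ages, by the interaction test of limma over all genes, for 2 of the 76 genes. Mrpl1 differed by 1.25 on the log2 scale (adjusted p = 0.002), with 3 of 3 null libraries below every WT library at P1 and 3 of 3 above every WT library at week 8. Mrpl30 differed by -0.70 (adjusted p = 0.044), with overlapping groups at P1 and 3 of 3 null libraries below every WT library at week 8. A test for a single distant library was not run in these groups of 3. The acinar share of reads crossed over between the same groups, from a mean of 4.20% in WT and 20.2% in null islets at P1 to 52.1% and 17.1% at week 8. With that share as a covariate neither gene was called, at 0.77 (SE 0.72) for Mrpl1 and 0.39 (SE 0.65) for Mrpl30. Without the covariate both SEs were 0.23. The share was 49.7% to 56.0% in WT week 8 libraries and at most 26.5% in the others. The covariate fit can thus hardly tell the share apart from the groups, and the lost calls decide nothing.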

How the results depend on the processing

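The counts of members in this paragraph are given without the share of all genes called, so they describe the fits only. Totals without the 10 most abundant genes gave 24 members called at week 8, 30 for the interaction and 52 with age in WT islets. Totals without acinar genes gave 4 for the interaction, 21 with age in WT and 20 with age in null islets. Upper quartile scaling gave 1 for the interaction and 4 with age in null islets. For the interaction edgeR gave 4 and DESeq2 5, and at P1 DESeq2 gave 1. An adjusted p of at most 0.1 gave 9 for the interaction, 17 with age in WT and 15 with age in null islets, and the gene length offset 8, 17 and 14. The acinar covariate gave 0 at week 8, for the interaction and with age in WT islets, but the acinar share can hardly be told apart from the groups. One fit of 12 libraries gave 8 at week 8, and fits within a genotype 3 with age in WT and 16 with age in null islets. The summed level at week 8, null over WT, was 0.934 without acinar reads and 0.917 in normalised counts, both alternatives chosen after seeing the data, as was the P1 ratio of 0.856 without WT P1 replicate 1 (0.730 with it), which was 1.03 when acinar reads were left out as well and 1.04 in normalised counts.

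Members that changed sign with a call in either fit did so under 2 settings, and the cause was not tested beyond the shift of all genes given in the report. With totals without the 10 most abundant genes, the log2 values at week 8 were 0.060 for Mrpl20, 0.032 for Mrpl28 and 0.057 for Mrpl13, and with age in WT islets -0.095 for Mrps24, -0.25 for Mrpl30, -0.25 for Mrpl16 and -0.16 for Mrps14. With the acinar covariate they were 0.11 for Mrps24, 0.21 for Mrpl30 and 0.32 for Mrpl13 at week 8, 0.39 for the interaction of Mrpl30, and -0.50, -0.48 and -0.54 with age in WT islets for Mrps24, Mrpl30 and Mrpl16.

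Leaving out a single library gave 4 to 14 members called at week 8, 0 at P1 and 1 to 12 for the interaction. With age it gave 3 to 25 in WT and 3 to 17 in null islets, again without the shares of all genes. Same-numbered libraries did not deviate together (correlations 0.06, -0.04 and -0.01 at P1 between genotypes, and -0.06, -0.06 and -0.01 between the WT ages), so the numbers were not taken as pairs. With a replicate block 0 members were called at P1, with or without the gene length offset, and 3 with age in WT islets, as in the 6 WT libraries without the block. The shares of all genes called are not given for these fits either.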
